A study of Arabidopsis thaliana with 16 samples.

Results

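The genes described here build and distribute the cuticular wax of Arabidopsis thaliana. They are 9 loci grouped by their function, in a set drawn up with earlier results of these data known. The set holds the lipid transfer proteins LTP1 (AT2G38540), LTP2 (AT2G38530), LTP3 (AT5G59320) and LTP4 (AT5G59310), the fatty acid elongases KCS1 (AT1G01120) and KCS6 (AT1G68530), the alkane-forming enzymes CER1 (AT1G02205) and CER3 (AT5G57800), and the transcription factor MYB96 (AT5G62470). These are 9 of the 34262 features counted in the series, and all 9 passed the filter on low counts in every comparison. They were followed through total mRNA, polysomal RNA (RNA recovered with ribosomes) and maps of N6-methyladenosine (m6A), an internal methyl mark of mRNA. The series asks what m6A does in the response to cold.

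All samples were whole seedlings of the wild-type ecotype Col-0, 20 days old, grown on agar plates at 22 °C with 12 h of light and 12 h of dark. Cold seedlings spent 24 h at 4 °C, and control seedlings were untreated. Total mRNA was sequenced from 3 cold and 3 control samples and polysomal RNA from 2 cold and 2 control samples, and m6A immunoprecipitation (MeRIP) gave 3 cold and 3 control peak lists. No mutant or transgenic line is part of the groups. The labels do not state whether replicates were separate batches of plants. The p-values therefore refer to the spread among these samples, part of which may be technical.

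The cuticle is a lipid layer that epidermal cells deposit on the outside of the shoot, where it limits water loss. Its waxes are very-long-chain compounds. An elongase complex in the endoplasmic reticulum lengthens fatty acids, an alkane-forming branch and an alcohol-forming branch convert them, and transporters of the ABCG family and lipid-binding proteins take part in moving them to the surface. Drought and abscisic acid are known to induce wax genes through MYB96, and many wax enzymes are made almost only in the epidermis, so in whole seedlings fewer epidermal cells and less RNA per epidermal cell cannot be told apart.

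Gene counts ranged from 8428636 to 10965304 in 5 mRNA libraries and from 12984431 to 22200225 in the 4 polysome libraries. Cold mRNA replicate 3 stood apart, with 3282574 gene counts. Genes held 6.60% of its reads, where the remaining mRNA libraries had 25.7% to 31.2%, and organelle genes held 22.1% of its gene counts. A second pattern concerned control mRNA replicate 3 and, for some genes, cold mRNA replicate 3. Among 11735 coding genes with at least 10 CPM (counts scaled to a common library size, corrected for library composition) in control mRNA replicates 1 and 2, 35, or 0.298%, were in control replicate 3 at under 10% of that mean, and LTP3, LTP4 and CER1 were 3 of those 35. Cold replicate 3 had 0 reads of LTP3, 0 reads of CER1 and 2 reads of LTP4. Not all of the 35 genes were that low in cold replicate 3. AT4G27450 had 9.52 CPM there against a mean of 5.45 CPM in cold replicates 1 and 2, and ADH1 had 319 against 637.5 CPM. The pattern was seen after the data were examined, and its source was not tested. The mRNA changes of the 9 genes are given below with both libraries numbered 3 and with the outcome of leaving them out. The translational efficiency estimates are given with them. The epidermis and guard cell markers held a summed level of 479 to 519 CPM in the cold mRNA libraries and 483 to 519 CPM in the control ones. On polysomes they held 428 to 637 CPM in the cold and 418 to 571 CPM in the control. With 0 of 9 markers at 0, epidermal RNA was present in every library. A sum does not show that each marker was stable, and single markers are given below. The mesophyll markers were at 17790 to 25780 CPM in cold and 17850 to 21430 CPM in control mRNA, and the floral organ markers at 2.60 to 3.31 CPM in all mRNA libraries. The root and suberin markers summed to 100.5 to 144 CPM in cold and 65.5 to 93.1 CPM in control mRNA, without overlap, and to 20.5 to 22.0 CPM in cold and 17.7 to 19.3 CPM in control polysomes, again without overlap. Their part in the results below was not tested.

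In the cold, the mRNA estimate of each of the 9 genes lay below 0. Their median log2 change was −0.999 against −0.01 over all 19261 genes tested, of which 51.05% were below 0. The 9 genes were chosen with earlier results of these data known, so this contrast is descriptive only. Only 1 of the 9 passed the test, KCS6, where 12.3% of all genes were called lower at an adjusted p under 0.05 and 13.4% were called higher. KCS1, KCS6 and MYB96 were lower in every cold mRNA library than in every control library, 3 of 9, where 18.9% of all genes were. Without both libraries numbered 3, an alternative added after seeing the data, 5 of the 9 passed the test, all lower: LTP1, LTP2, KCS1, KCS6 and CER1. In that fit 14.0% of all genes were called lower. On polysomes 8 of 9 estimates lay below 0, with a median of −0.72 against −0.02 over all 19239 genes tested, and without control polysome replicate 2 the estimate of LTP1 turned positive. CER1 was the 1 member that passed the test there, where 3.95% of all genes were called lower and 3.87% higher. LTP2, LTP3, LTP4, KCS6, CER1 and CER3 were lower in both cold polysome libraries than in both control libraries, 6 of 9, where 30.9% of all genes were.

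**Figure D1:**
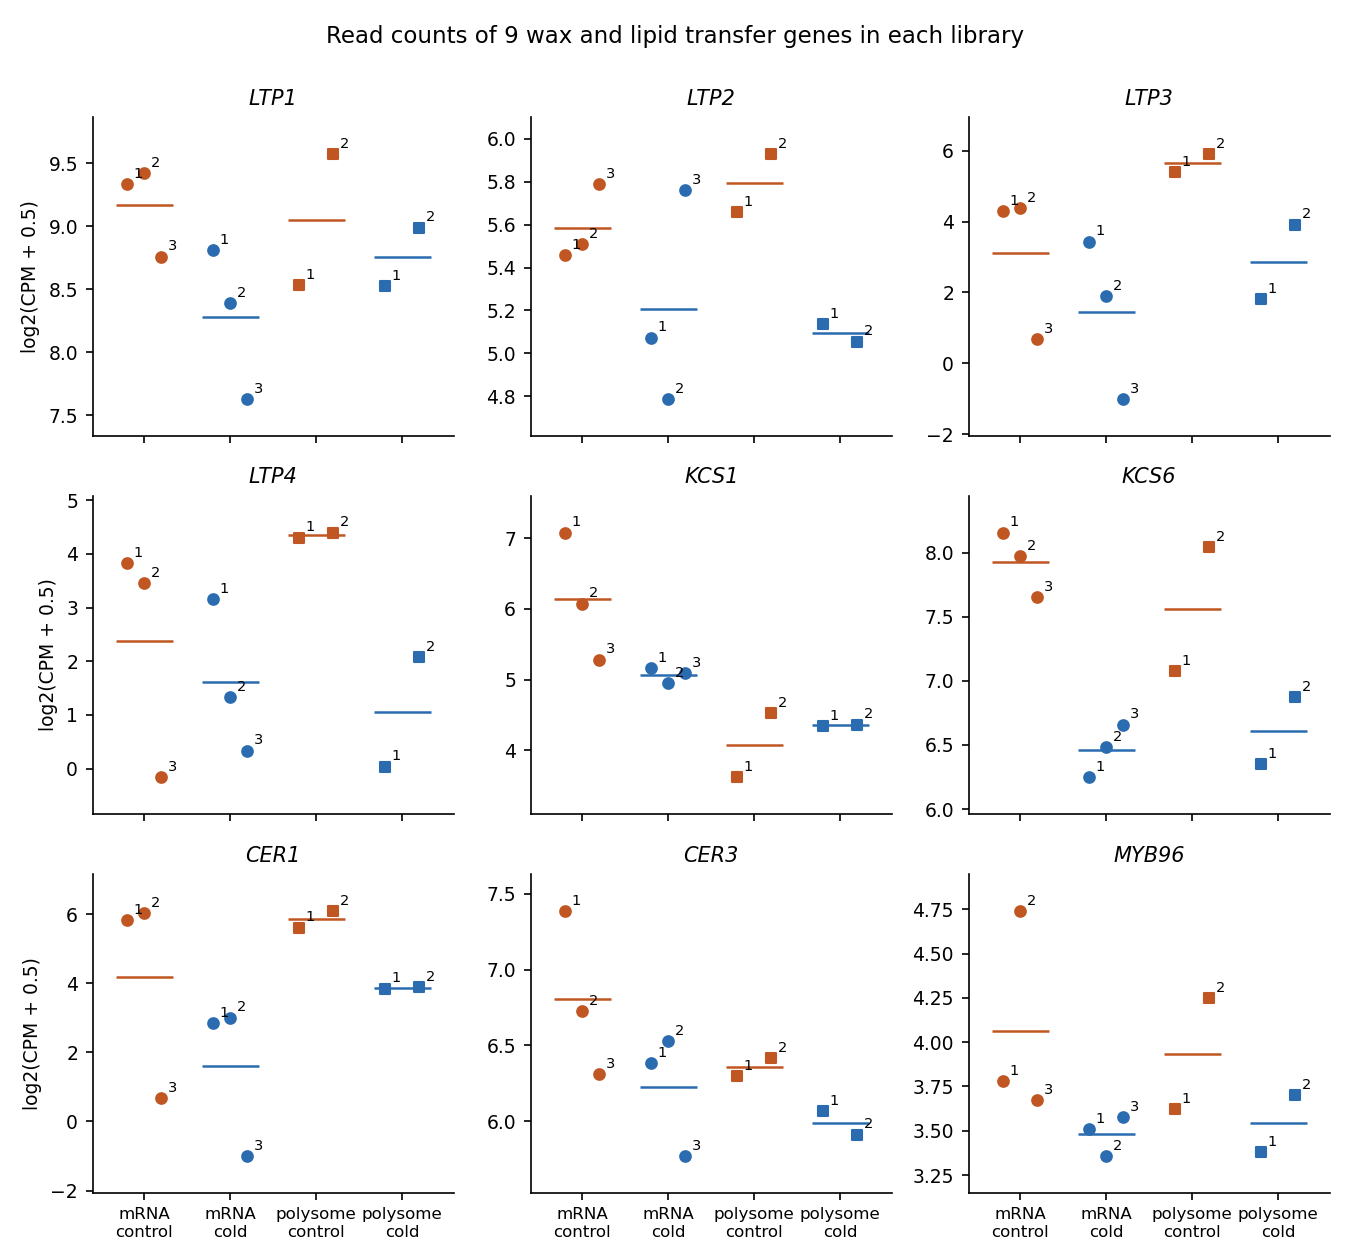
Level of each of the 9 genes as log2(CPM + 0.5) in the mRNA libraries (circles) and polysome libraries (squares), control in orange and cold in blue, with the replicate number beside each point and a line at each group's mean. KCS1, KCS6 and MYB96 separate the mRNA groups fully. Among the mRNA libraries of each condition, LTP3, LTP4 and CER1 sit lowest in the library numbered 3.

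**Figure D2:**
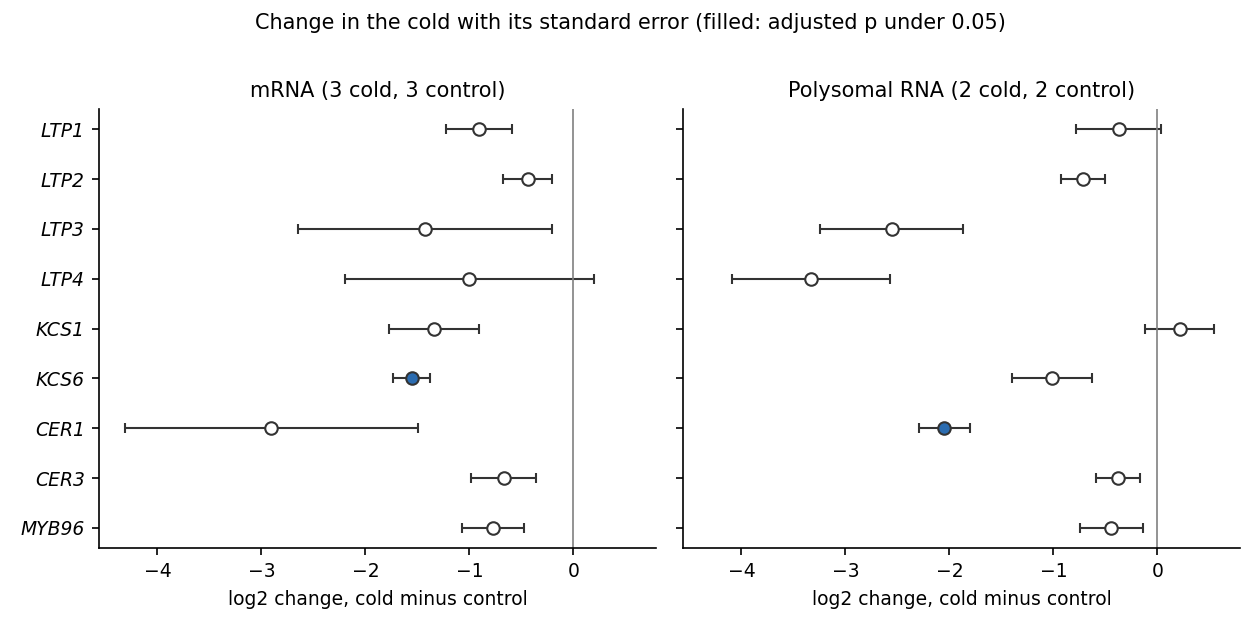
Log2 change from control to cold in mRNA (left) and polysomal RNA (right) with its standard error from edgeR, with filled points for genes past an adjusted p of 0.05. KCS6 at −1.55 in mRNA and CER1 at −2.05 on polysomes are the filled points. In mRNA the bars of LTP3, LTP4 and CER1 are the longest, and these genes were low in the libraries numbered 3. LTP3 and LTP4 also differed between cold mRNA replicates 1 and 2.

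The levels of the 9 genes spanned a wide range. Per kilobase of exon, LTP1 was by far the highest in control mRNA, at 706 ± 162 CPM per kb (SD, n = 3), followed by KCS6 at 94.2 ± 16.2 CPM per kb. The ranges of these highest genes did not overlap with each other or with any other member. CER3 at 45.2 ± 17.4, LTP2 at 42.9 ± 5.53 and KCS1 at 39.0 ± 24.2 CPM per kb overlapped among themselves. LTP3 at 17.7 ± 14.1, CER1 at 11.3 ± 9.61, LTP4 at 9.84 ± 8.33 and MYB96 at 9.64 ± 4.36 CPM per kb formed the lowest and overlapping set. On control polysomes LTP1 was again highest, at 680 ± 334 CPM per kb (SD, n = 2), then KCS6 at 76.3 ± 35.0 and LTP3 at 65.5 ± 16.7 CPM per kb, whose ranges overlapped.

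The lipid transfer proteins are small secreted proteins with a hydrophobic cavity that binds lipids, found in large amounts in the cell walls of the epidermis. The 4 genes lie in 2 neighbouring pairs. LTP2 and LTP1 lie on the plus strand of chromosome 2 (TAIR10.1 coordinates chr2:16128176-16129399 and chr2:16130290-16131240), and LTP4 and LTP3 on the minus and plus strands of chromosome 5 (chr5:23924990-23925957 and chr5:23928954-23929816). LTP1 and LTP2 share 82.35% of their coding bases and 68.64% of their amino acids, and LTP3 and LTP4 share 84.48% and 81.74%. The longest run of identical transcript bases is 40 for the first pair and 44 for the second, shorter than the fragments of about 100 nt in the libraries. Reads that aligned to more than 1 place were given to no gene, so counts of these genes rest on the reads that told them apart.

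LTP1 had 449, 335 and 198 CPM in the cold mRNA libraries 1 to 3 and 645, 685 and 433 CPM in the control libraries. On polysomes it had 369 and 508 CPM in the cold and 369.5 and 762 CPM in the control. Only cold replicate 1 reached into the control range of mRNA, and the polysome groups overlapped. The log2 change of LTP1 was −0.91 in mRNA (SE 0.315, adjusted p = 0.0696) and −0.37 on polysomes (SE 0.409, adjusted p = 0.586, between −0.80 and 0.24 when 1 polysome library was left out), by edgeR's quasi-likelihood test, as are all adjusted p-values here. Without the mRNA libraries numbered 3 the mRNA change was −0.81 and passed (adjusted p = 0.0116).

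LTP2 had 33.2, 27.1 and 53.7 CPM in cold and 43.4, 45.1 and 54.8 CPM in control mRNA. Cold replicate 3 lay inside the control range, and the other cold libraries lay below it. On polysomes LTP2 had 34.7 and 32.7 CPM in the cold and 50.03 and 60.4 CPM in the control, with no overlap. The log2 change was −0.44 in mRNA (SE 0.233, adjusted p = 0.195) and −0.72 on polysomes (SE 0.211, adjusted p = 0.0870). Without the mRNA libraries numbered 3 the mRNA change was −0.60 and passed (adjusted p = 0.0258), as it did without cold replicate 3 alone, at −0.72 (adjusted p = 0.0252).

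LTP3, which MYB96 is known to activate and which has been tied to freezing and drought tolerance, had 10.3, 3.22 and 0 CPM in cold and 19.2, 20.4 and 1.10 CPM in control mRNA. A count of 0 in cold replicate 3 allows a level of up to 1.14 CPM (3 reads, counting error only). On polysomes it had 3.02 and 14.6 CPM in the cold and 41.3 and 59.4 CPM in the control. The mRNA groups overlapped only through control replicate 3, while the polysome groups lay far apart. The log2 change was −1.43 in mRNA (SE 1.22, adjusted p = 0.439) and −2.56 on polysomes (SE 0.688, adjusted p = 0.0751). Without the mRNA libraries numbered 3 the mRNA change was −1.60 (adjusted p = 0.0692). Leaving out 1 cold polysome library gave −1.78 and −4.05, but such a fit holds a single cold library, assumed to vary like the control pair, and adds no support.

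LTP4, its neighbour, had 8.41, 2.02 and 0.761 CPM in cold and 13.6, 10.5 and 0.393 CPM in control mRNA. On polysomes it had 0.527 and 3.73 CPM in the cold, from 11 and 43 reads, and 19.2 and 20.6 CPM in the control, from 374 and 422 reads. The polysome groups did not overlap, and in mRNA control replicate 3 lay below every cold library. The log2 change was −0.999 in mRNA (SE 1.19, adjusted p = 0.580) and −3.33 on polysomes (SE 0.762, adjusted p = 0.0525), the lowest polysome estimate of the 9 and just outside the threshold. In mRNA LTP4 passed under 0 of 13 other settings, among them the fit without both libraries numbered 3, with changes between −2.34 and −0.43. The cold polysome libraries differed from each other, with changes of −2.40 without cold replicate 1 and −5.21 without cold replicate 2, each fit holding a single cold library.

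KCS1 and KCS6 are 3-ketoacyl-CoA synthases, the condensing enzymes that set the chain length made by the elongase. KCS1 acts broadly, and KCS6 (also CER6 or CUT1) is the main enzyme for the longest wax precursors. Their coding sequences share 57.19% of bases. KCS6 is on the minus strand (TAIR10.1 chr1:25712414-25715024, 2 exons). The 250 bases before its start are shown because KCS6 was the member called in mRNA. Capitals mark ACGTG on either strand, written ACGTG or CACGT, the core of the element that abscisic acid response factors bind.
KCS6 promoter, chr1:25715025-25715274, minus strand: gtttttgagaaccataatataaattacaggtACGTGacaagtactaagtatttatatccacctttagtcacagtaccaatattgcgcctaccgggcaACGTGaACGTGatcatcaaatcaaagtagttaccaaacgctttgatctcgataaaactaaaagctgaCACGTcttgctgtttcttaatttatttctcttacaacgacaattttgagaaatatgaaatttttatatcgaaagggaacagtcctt

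KCS6 had 75.4, 89.1 and 100.5 CPM in cold and 285, 251 and 201 CPM in control mRNA. On polysomes it had 81.2 and 117 CPM in the cold and 135 and 264 CPM in the control. Every cold library lay below every control library in both kinds of RNA. KCS6 mRNA fell by 1.55 on the log2 scale (SE 0.176, adjusted p = 0.00086), to a ratio of 0.340, and it passed under each of the 13 other settings tried, with changes between −1.75 and −1.44. On polysomes the log2 change was −1.02 (SE 0.384, adjusted p = 0.144).

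KCS1 had 35.4, 30.4 and 33.5 CPM in cold and 134.9, 66.8 and 38.5 CPM in control mRNA. The cold libraries lay close together and just below control replicate 3, while the control libraries spread widely. On polysomes it had 19.8 and 20.1 CPM in the cold, between the 11.8 and 22.5 CPM of the control. The log2 change was −1.34 in mRNA (SE 0.432, adjusted p = 0.0628) and 0.22 on polysomes (SE 0.333, adjusted p = 0.706). Without the mRNA libraries numbered 3 the mRNA change was −1.66 and passed (adjusted p = 0.0241), as it did without control replicate 3 alone, at −1.67 (adjusted p = 0.00561). Leaving out polysome libraries moved the polysome estimate between −0.17 and 0.76, so its direction was not settled.

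CER1 and CER3 act together to turn very-long-chain acyl-CoA into alkanes, the main wax class of Arabidopsis leaves, and CER1 level is known to set how much alkane is made. CER1 lies on the plus strand at chr1:418416-422579 (TAIR10.1, 10 exons) and CER3 on the plus strand at chr5:23420184-23424117 (11 exons). Their proteins share 33.91% of residues. The promoter of CER1 is shown because CER1 was the member called on polysomes. Capitals mark ACGTG and GTCGG, the latter being CCGAC on the other strand, the core of the element bound by the CBF cold regulators.
CER1 promoter, chr1:418166-418415, plus strand: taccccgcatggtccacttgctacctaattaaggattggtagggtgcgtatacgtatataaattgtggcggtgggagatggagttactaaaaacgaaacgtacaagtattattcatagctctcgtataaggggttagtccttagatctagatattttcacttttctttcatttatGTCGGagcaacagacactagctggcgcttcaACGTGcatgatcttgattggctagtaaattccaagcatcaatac

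Read over both strands, ACGTG was present in the 250 bases of LTP2, KCS6 and CER1, 3 of the 9 genes, and in 22.9% of 27443 gene promoters of that length. CCGAC was present in LTP2 and CER1, 2 of the 9, and in 12.0% of those promoters. KCS6 held 4 ACGTG matches, at 219, 153, 147 and 86 bases before the start. A match is a string of letters and not a measured site, and a gene without one may hold it outside this window.

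CER1 had 6.71, 7.54 and 0 CPM in cold and 55.9, 64.9 and 1.10 CPM in control mRNA. In control replicate 3 this was 1.82% of the mean of control replicates 1 and 2, from 14 reads. On polysomes CER1 had 13.9 and 14.2 CPM in the cold and 48.3 and 67.5 CPM in the control, well apart. Polysomal CER1 fell by 2.05 on the log2 scale (SE 0.247, adjusted p = 0.0212), to a ratio of 0.241, a call lost when its spread was estimated over the 10 count libraries (−2.04, adjusted p = 0.319). The mRNA change was −2.91 (SE 1.41, adjusted p = 0.191). Without the mRNA libraries numbered 3 it was −3.12 and passed (adjusted p = 0.00014), and without control replicate 3 alone it was −3.46 (adjusted p = 0.0237).

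CER3 had 83.1, 91.7 and 54.1 CPM in cold and 166.8, 105.5 and 78.8 CPM in control mRNA. It had 66.5 and 59.7 CPM on cold polysomes and 78.3 and 84.9 CPM on control polysomes. The mRNA groups overlapped through control replicate 3, and the polysome groups did not overlap. The log2 change was −0.67 in mRNA (SE 0.310, adjusted p = 0.151) and −0.38 on polysomes (SE 0.212, adjusted p = 0.287), and neither passed without the mRNA libraries numbered 3 (mRNA −0.68, adjusted p = 0.0611) or without any single library.

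MYB96 activates wax genes when abscisic acid signalling rises. It had 10.9, 9.75 and 11.4 CPM in cold and 13.2, 26.2 and 12.3 CPM in control mRNA, and 9.92 and 12.5 CPM in cold and 11.8 and 18.5 CPM in control polysomes. In mRNA the cold libraries all lay below the control ones, by little for control replicates 1 and 3, and the polysome groups overlapped. The log2 change was −0.77 in mRNA (SE 0.301, adjusted p = 0.0903) and −0.45 on polysomes (SE 0.302, adjusted p = 0.371). It passed in mRNA only with library totals in place of composition scaling, at −0.93 (adjusted p = 0.0489), and without control replicate 3, at −0.97 (adjusted p = 0.0420).

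Whether cold moved polysomal RNA differently from total mRNA was tested as an interaction over the 10 count libraries, called translational efficiency. By edgeR's quasi-likelihood test 0 of the 9 genes passed, where 0.285% of all genes did, and DESeq2 called 0 as well. At an unadjusted p under 0.05 there was 1 member, KCS1, whose difference was 1.49 (SE 0.639, adjusted p = 0.386). LTP4 had the lowest estimate, −2.38 (SE 1.75, adjusted p = 0.624). An adjusted p above the threshold does not show that the changes were alike.

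Within a condition, polysomal RNA was compared with total mRNA in the same fit. The library preparation differs between these kinds of RNA and cannot be told apart from ribosome loading. Root and suberin markers summed to 17.7 to 19.3 CPM on control polysomes against 65.5 to 93.1 CPM in control mRNA. Whether organ content differed between the 2 kinds of sample was not tested. In the control, KCS1 was lower on polysomes by a log2 difference of −2.22 (SE 0.483, adjusted p = 0.00873), a ratio of 0.214, the 1 member of 9 called, where 14.0% of all genes were called lower. Its control polysome libraries at 11.8 and 22.5 CPM lay below all control mRNA libraries. The call was lost without control polysome replicate 1, at −1.82 (adjusted p = 0.0742). In the cold the KCS1 difference was −0.73 (SE 0.462, adjusted p = 0.336), and 0 of 9 members passed in either direction by edgeR, with 0 at an unadjusted p under 0.05, where 11.4% of all genes passed. For LTP3 and LTP4 the control log2 differences were 1.90 (SE 1.11, adjusted p = 0.237) and 1.296 (SE 1.11, adjusted p = 0.419), and neither passed. Control mRNA replicate 3 held only 14 and 5 reads of these genes. Without the mRNA libraries numbered 3, CER1 in the cold was higher on polysomes by 1.01 (adjusted p = 0.0281) and CER3 in the control lower, at −0.74 (adjusted p = 0.0490).

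The m6A peak lists were called by the authors for each immunoprecipitated library. A gene was counted in a list when a peak summit with a q of at most 0.05 lay inside it on its strand. By this rule 4 of the 9 genes had a peak in at least 1 list: KCS6, CER1, CER3 and MYB96. The 4 lipid transfer genes and KCS1 had none, 5 of 9, where 21.8% of 14873 expressed coding genes had none in the 6 lists. No member had a peak in all 3 control lists, where 22.7% of those genes did, or in all 3 cold lists, where 13.4% did. No test of a difference between conditions was run, since an exact test on the presence of a peak could not pass the threshold with 3 against 3 lists. Cold list 3 was the shortest, with 15383 peaks against 23174 to 27310.

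At a q of at most 0.05, summits of KCS6 and MYB96 lay in the coding sequence and those of CER3 just past the stop codon. Those of CER1 lay in both regions. Deposited peaks with a q above 0.05 also lay in the 3′ UTR of KCS6 and the 5′ UTR of CER3. The windows below are centred near the summit of lowest q in the region named, on the transcript strand in TAIR10.1 coordinates. The summit of lowest q in CER1 lay in its coding sequence, but its window crosses the edge of an exon and is not shown. Capitals mark GGAC, a common m6A context, and TATAT, one of 4 related strings searched because plant m6A maps often hold them. The other three were TGTAC, together with TGTAT, and further TATAC.
KCS6 coding sequence, chr1:25714238-25714338, minus strand: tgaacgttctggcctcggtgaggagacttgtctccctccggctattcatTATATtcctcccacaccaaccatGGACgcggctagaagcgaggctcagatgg
MYB96 coding sequence, chr5:25079812-25079912, minus strand: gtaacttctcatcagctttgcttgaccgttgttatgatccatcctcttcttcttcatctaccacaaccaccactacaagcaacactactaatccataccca
CER3 3′ UTR, chr5:23423859-23423888, plus strand: tgtcttttgactctcccaagattggtcatt
CER1 3′ UTR, chr1:422210-422239, plus strand: ttccttatgatccagctcttccacgcacaa

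Of the windows shown that of KCS6 held both kinds of string and the rest neither, while the CER1 coding window that is not shown held TGTAT. Among 46976 summit windows of q at most 0.05 over the 6 lists, GGAC was in 15.3% of those of 101 bases and 4.80% of those of 30 bases, and the TGTAC group was in 38.0% and 13.9%. Absence from a window says only that those letters are not in it.

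KCS6 had its peak in cold lists 1 and 2 and control lists 2 and 3. The authors' fold enrichment was 2.49 in cold list 1 (q = 0.00432), 2.11 in cold list 2 (q = 0.0375), 2.22 in control list 2 (q = 0.00253) and 2.07 in control list 3 (q = 0.00991). These summits lay at positions −1046, −945, −1048 and −1050, in the same order, in spliced bases from the stop codon, negative values being before it. Cold list 3 and control list 1 held a coding sequence peak at −1052 and −946 with a q above 0.05. At a q of at most 0.05 the m6A call of KCS6 was in as many cold as control lists. At a q of at most 0.01 it was in 1 cold and 2 control lists. KCS6 mRNA was lower in the cold and a peak needs reads to be called, so level and methylation cannot be told apart.

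CER3 had a peak 41 or 42 bases after the stop codon in cold list 1 (fold 3.26, q = 8.86e-05), cold list 2 (fold 3.91, q = 4.81e-06) and control list 3 (fold 3.19, q = 8.3e-05). In control lists 1 and 2 and cold list 3 its peaks near the stop codon had a q above 0.05. The 3 strong summits agree in place to within 1 base although they come from separate libraries of both conditions.

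CER1 had called peaks in control lists 1 and 2 only. Control list 1 held 3 of them, at −1356 and −337 bases from the stop codon (folds 2.93 and 2.92) and 70 bases after it (fold 3.42, q = 0.00109). Control list 2 held 2, at −1349 (fold 4.36, q = 6.62e-07) and at −1147 (fold 2.62, q = 0.0124). The peak of control list 2 at 70 bases after the stop codon had a q of 0.0512, just over the threshold. In cold lists 1 and 2 CER1 had deposited peaks at 74 and 69 bases after the stop codon with a q of 1 and 0.463. Both lists numbered 3 held no deposited peak in CER1 at all. CER1 mRNA was lowest in the mRNA libraries numbered 3 and low in the cold, but no label ties a peak list to the mRNA library of its number. A peak needs reads to be called, so level and methylation cannot be told apart here.

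MYB96 had 1 called peak, in control list 1, at −428 (fold 4.11, q = 0.000387). All 6 lists held a deposited coding sequence peak in MYB96, between −353 and −444, and in the other 5 its q ran from 0.0628 to 1. Counting every deposited peak, which the authors listed down to an unadjusted p of about 0.05, 8 of the 9 genes had one, with LTP4 as the gene without any.

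**Figure D3:**
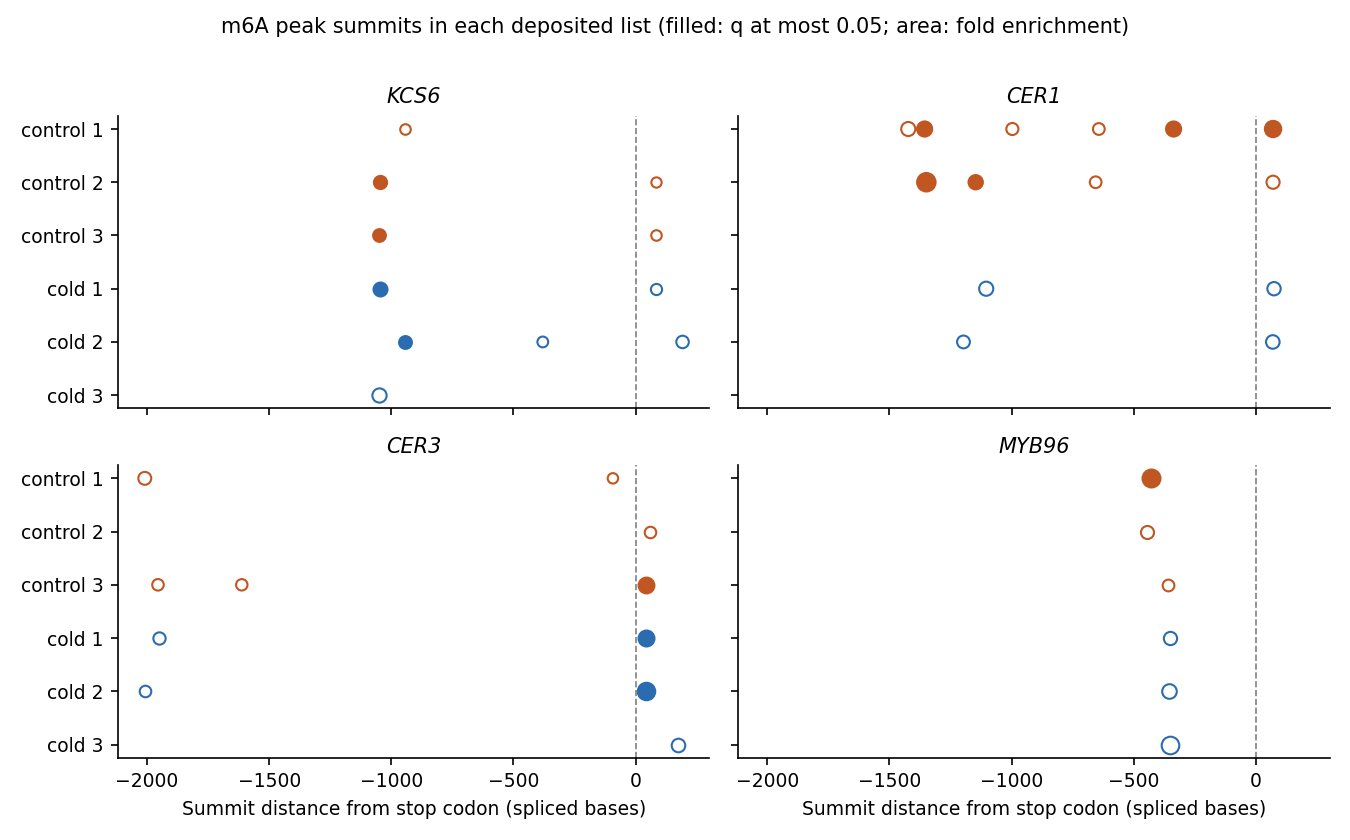
Position of each deposited m6A peak summit in KCS6, CER1, CER3 and MYB96, in spliced bases from the stop codon (dashed line, negative before it), for the 3 control lists (orange) and 3 cold lists (blue). Filled points have a q of at most 0.05 and the area follows the authors' fold. The filled points of CER3 lie at 41 or 42 bases in both conditions, those of KCS6 at −945 and between −1046 and −1050, and CER1 has filled points in control lists 1 and 2 only.

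Other genes of the pathway were read from lists drawn up by function, also with earlier results of these data known. Among 12 further elongase genes, 2 rose and 3 fell in mRNA, and on polysomes 2 rose and 0 fell. LACS1, which activates long-chain fatty acids to their CoA form, rose by 1.86 in mRNA (SE 0.242, adjusted p = 0.00159), from 40.3, 43.8 and 48.8 CPM in the control to 206, 187 and 110 CPM in the cold. It also rose on polysomes by 1.64 (SE 0.249, adjusted p = 0.0258). KCS2, a condensing enzyme of suberin and wax, fell by 1.52 in mRNA (adjusted p = 0.000988), from 33.9 ± 2.98 to 12.8 ± 2.80 CPM (SD, n = 3), close to the change of KCS6. PAS2, the dehydratase of the elongase cycle, fell by 0.92 (adjusted p = 0.0113, lost without cold mRNA replicate 2). KCS20 rose on polysomes by 1.22 (adjusted p = 0.0347), and KCS5 rose in mRNA by 0.77 (adjusted p = 0.0470), a call lost under 8 of 13 other settings. The polysome calls of LACS1 and KCS20 were lost without either control polysome replicate. The condensing enzymes moved in both directions.

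Of the 4 genes of alkane, alcohol and ester formation beside CER1 and CER3, 1 could be tested in mRNA and 1 on polysomes, and neither passed. WSD1, a wax ester synthase, had 0.567, 0.368 and 0 CPM in cold and 8.89, 14.9 and 0.550 CPM in control mRNA. It did not pass the filter on low counts in mRNA, having few reads in all but control replicates 1 and 2. Its control replicate 3 was at 4.63% of the mean of control replicates 1 and 2. On polysomes its log2 change was −3.27 (SE 0.858, adjusted p = 0.0683).

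Of 5 wax export genes, 2 fell and 0 rose in mRNA and none passed on polysomes. The ABC transporters ABCG12 and ABCG11 fell by 0.69 (adjusted p = 0.0153) and 0.44 (adjusted p = 0.0329) in mRNA, while on polysomes their changes were −0.05 and 0.07. The mRNA calls of ABCG11 and ABCG12 were lost under 9 and 3 of 13 other settings, and both polysome estimates changed sign when 1 library was left out. Of 11 tested wax and cuticle regulators, 4 rose and 0 fell in mRNA, and 0 rose and 1 fell on polysomes. DEWAX, a transcription factor known to repress wax genes, CER1 among them, rose by 2.40 in mRNA (SE 0.590, adjusted p = 0.0319), from 35.6, 7.19 and 16.0 CPM to 73.2, 135.5 and 114 CPM, a call lost under 7 of 13 other settings. On polysomes the DEWAX change was 0.54 (SE 0.479, adjusted p = 0.4995), and the groups overlapped. HDG1, a homeodomain factor, rose by 1.00 in mRNA (adjusted p = 0.00618). WRI4, an activator of wax synthesis in stems, fell by 1.23 on polysomes (adjusted p = 0.0449), a call lost without either control polysome replicate and without cold replicate 1. In mRNA the WRI4 estimate had the opposite sign, at 1.31 (SE 0.557, adjusted p = 0.130), and the groups overlapped.

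The cutin polyester and the other lipid transfer genes were also split. Of 11 tested cutin genes 3 rose and 5 fell in mRNA, with the cytochrome P450 CYP86A4 up by 1.91 (adjusted p = 0.00276) and the P450 CYP77A6 down, at −2.40 (adjusted p = 0.00436). The acyltransferase GPAT6 rose by 0.88 (adjusted p = 0.0469, lost under 7 of 13 other settings) and BDG1 fell by 1.12 (adjusted p = 0.00301). On polysomes 1 of 12 cutin genes passed, DCR, which fell by 1.01 (adjusted p = 0.0450), a call lost without either control polysome replicate and without cold replicate 2. Of 5 tested type 1 lipid transfer genes outside the 9, LTP5 rose by 0.88 in mRNA (SE 0.136, adjusted p = 0.00299), from 346, 308 and 314 CPM to 647, 579.5 and 655.5 CPM. LTP7 fell by 1.39 (adjusted p = 0.0151, lost without cold mRNA replicate 2) and AT2G18370 by 1.12 (adjusted p = 0.00273), and 0 of 5 passed on polysomes. LTP5 thus had the opposite sign to LTP1, LTP2, LTP3 and LTP4, of which none passed in mRNA.

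**Figure D4:**
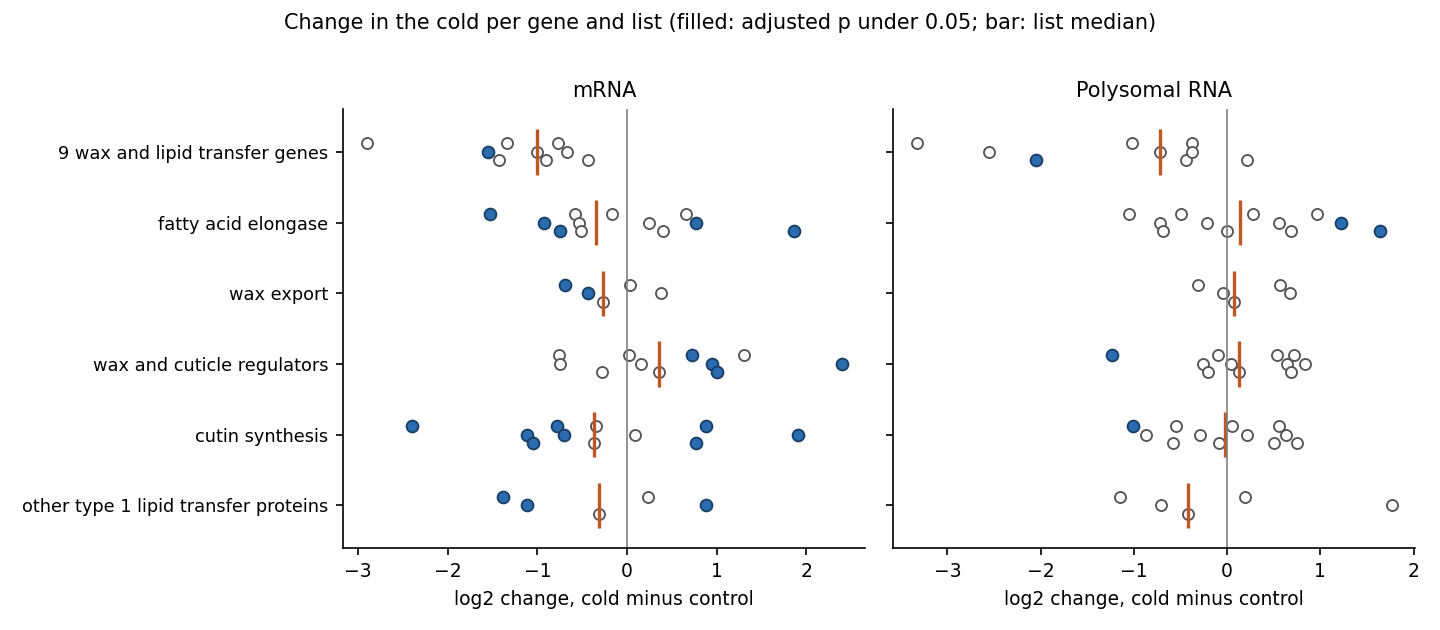
Log2 change from control to cold for each tested gene (point) of the 9 genes and of the further pathway lists, in mRNA (left) and polysomal RNA (right). Filled points passed an adjusted p of 0.05 and bars give list medians. The medians of the 9 genes, −0.999 in mRNA and −0.72 on polysomes, lie below those of the elongase, export, regulator, cutin and other lipid transfer lists.

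Among markers, the epidermal regulator ATML1 rose by 0.44 in mRNA (adjusted p = 0.0443), the epidermal condensing enzyme FDH fell by 0.61 (adjusted p = 0.0467) and the guard cell channel KAT1 fell by 1.17 (adjusted p = 0.0341), 1 up and 2 down of 9. Among root and suberin markers 2 of 7 rose, GPAT5 by 1.54 (adjusted p = 0.00599) and CYP86B1 by 0.69 (adjusted p = 0.0355). The mesophyll marker RCA fell by 0.72 (adjusted p = 0.0202), and no marker passed on polysomes. Each of these calls except GPAT5 was lost under some of the 13 other settings. Their part in the changes of the 9 genes was not tested.

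Likeness of profile was measured as the root mean square difference of log2(CPM + 0.5), centred on each gene's mean, over the 10 libraries and among 9468 coding genes. The gene nearest to KCS6 was AT2G26690, at 0.138, and the nearest to LTP2 was FUT12, at 0.147. FIM5 was nearest to MYB96 at 0.191, AT3G18280 to CER3 at 0.210, AT3G45310 to LTP1 at 0.245 and GPAT3 to KCS1 at 0.305. LTP3 and CER1 had SQE6 as nearest gene, at 1.02 and 1.17, and LTP4 had LOX2 at 0.898, so these 3 had no close match among those candidates. Genes of lower level were not searched, so a closer match among them may have been missed. Among the 9 genes, LTP3 and CER1 were each other's nearest, at 0.841, and LTP4 was nearest to LTP3, at 0.873. LOX2 is 1 of the 35 genes that were low in control mRNA replicate 3.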

How the data were processed

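The read counts per gene were deposited by the authors for the mRNA and polysome libraries. STAR, HTSeq and build TAIR10 are named without versions per the submitters' processing notes. The sources used here do not give the strand setting of the counting. The peak lists hold a score, a fold (ratio), a −log10 p and a −log10 q as the authors deposited them, with MACS2 per the submitters' processing notes and 1 list per library. Peak names ended in the strand opposite to the gene for 98.4% of peaks lying in 1 gene, so the strand was flipped.

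Genes were compared with edgeR 4.0.16 in R 4.3.3 (quasi-likelihood F test, robust, TMM, filterByExpr, Benjamini-Hochberg over all genes tested, threshold 0.05), and DESeq2 1.42.0 was an alternative. CPM used TMM factors over the 10 libraries. Rows that name no gene stayed out of library sizes and held 6.21% to 93.4% of tallied reads. Fits were tested on simulated data. Sequences came from RefSeq TAIR10.1. The members, lists and named genes (the 9 genes, up to 2 rises and 2 falls per list, and the nearest profiles) were chosen with earlier results of these data known.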

Additional observations from a re-analysis of the deposited data

How the results depend on the processing

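Of 1119 values recomputed under other settings, 954 kept their direction and side of the threshold, 85 lost a call, 49 gained one and 31 changed sign, none of them called in either fit. Over all genes, mRNA calls were 2586 higher and 2363 lower in the fit reported. They were 1361 and 2872 with library totals, 2657 and 2442 with DESeq2, and 2247 and 2129 with the replicate block. Without both libraries numbered 3 they were 3051 and 2718. Members called in mRNA numbered 1 in the fit reported, 3 with library totals, 3 with DESeq2, 6 with the replicate block and 5 without both libraries numbered 3, and 1 to 4 without single libraries. On polysomes the calls over all genes were 744 higher and 760 lower in the fit reported. They were 608 and 835 with library totals, 1696 and 1397 with DESeq2, and 2199 and 2309 with the replicate block. Members called on polysomes numbered 1, and 2 with library totals, 3 with DESeq2 and 5 with the replicate block. For polysomal against total mRNA in the control the number was 1, and 2 without both libraries numbered 3 and 0 to 1 without single libraries. In the cold it was 0, and 1 without both libraries numbered 3. Members with an m6A peak numbered 4 at a q of at most 0.05 and 8 with every deposited peak, and 3 to 4 without single lists. The causes were not tested. The CER1 call on polysomes was lost in the fit over 10 libraries (adjusted p = 0.319).

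The numbers pair the samples by no label. Same-numbered mRNA samples correlated at −0.037, −0.024 and 0.218, and not every sample correlated best with its own number. The block therefore stands only as an alternative. In mRNA it called LTP1, LTP3, KCS1, KCS6, CER1 and CER3. Same-numbered polysome samples correlated at 0.465 and differently numbered ones at −0.465. With 2 samples per group the second value is the first with its sign changed by construction, so the contrast cannot decide on pairing. There are only 2 pairs and no label that ties them. On polysomes the block called LTP2, LTP3, LTP4, KCS6 and CER1. Library totals moved the median mRNA change of genes past a mean log2 CPM of 1 from −0.01 to −0.17 and the share of higher calls from 52.2% to 32.1%. For polysomal against total mRNA they moved it from 0.03 to −0.23 in the control, with higher calls from 50.9% to 27.5%, and higher calls in the cold from 36.2% to 18.7%. Fits without a polysome library leave 1 sample in a group, assumed to vary like the other group.

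Signs changed as follows, with ranges over fits that leave out 1 library each. On polysomes LTP1 ran from −0.80 to 0.24, KCS1 from −0.17 to 0.76, ABCG11 from −0.14 to 0.32, ABCG12 from −0.60 to 0.42, DEWAX from −0.03 to 1.5, CYP77A6 from −1.03 to 0.19, FDH from −0.47 to 0.19 and CYP86B1 from −0.55 to 0.11. In translational efficiency LTP3 ran from −2.71 to 0.022, CER3 from −0.11 to 0.45 and MYB96 from −0.17 to 0.62. For polysomal against total mRNA in the control, LTP1 ran from −0.66 to 0.38, KCS6 from −0.86 to 0.11, CER1 from −0.060 to 1.03 and MYB96 from −0.54 to 0.25. In the cold, LTP2 ran from −0.34 to 0.19, LTP3 from −0.81 to 1.92, LTP4 from −2.98 to 0.27, KCS6 from −0.11 to 0.45 and MYB96 from −0.087 to 0.28. With library totals LTP2 in the control was at −0.059 and MYB96 in the cold at −0.018. Without both libraries numbered 3, CER1 in the control was at −0.062 and LTP2 in the cold at 0.19.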
